A study of Mus musculus with 24 samples.

Results

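Liver RNA was followed for 53 genes of ubiquitin tagging and proteasome degradation, taken from the 2372 genes of the expression table by their symbols. The rule kept proteasome subunits (Psm), ubiquitin-conjugating enzymes (Ube2), ubiquitin-specific proteases (Usp), numbered Rnf and Trim genes, F-box genes (Fbx) and cullins (Cul). It found 12 genes of the 20S core, 13 genes of the 19S cap, 2 Ube2 genes, 5 Usp genes, 12 Rnf genes, 5 Trim genes and 4 F-box genes. It found 0 cullins. The inducible catalytic subunits of the immunoproteasome were not analysed here. All 53 symbols matched an entry of the RefSeq annotation of GRCm38.p6.

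The livers came from 24 mice, 12 females and 12 males, all fed the Lieber-DeCarli alcohol diet for 3 weeks. Each mouse was injected on 2 occasions with adeno-associated virus (AAV) carrying a short hairpin RNA. The Kdm5 groups received AAV-shKdm5b with AAV-shKdm5c, against 2 histone H3 lysine 4 demethylases, and then AAV-shControl. The AhR groups received AAV-shControl and then AAV-shAhR, against the aryl hydrocarbon receptor. The combined groups received the Kdm5 vectors and then AAV-shAhR, and the control groups received AAV-shControl on both occasions. Each sex had all 4 settings with 3 mice each, so there were 8 groups, and every mouse, controls included, had alcohol and vectors. Strain, age, vector promoter and collection time are not stated in the labels. The study asks whether KDM5 demethylases act differently in the sexes in alcohol-associated liver disease, and the vectors and sexes were compared here gene by gene.

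Ubiquitin is passed along a chain of enzymes. An activating enzyme loads it, a conjugating enzyme carries it, and a ligase with a RING or a related domain places it on a target protein. F-box proteins choose targets for cullin ligases, and ubiquitin-specific proteases remove the tag again. The 26S proteasome binds tagged proteins with its 19S cap, whose ATPases unfold them, and cuts them inside the 20S core. In liver this system clears damaged proteins, and alcohol feeding is known to impair it. Several RNF and TRIM ligases also set the strength of antiviral and interferon signalling.

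Values are FPKM, fragments scaled by transcript length and by the library's mapped fragments, so levels can be compared between genes. A gene passed a comparison when its Benjamini-Hochberg adjusted p from limma, over 2299 tested genes, was below 0.05. Fold changes are on the log2(FPKM + 0.5) scale, and ± after them is the standard error. Whether groups of 3 mice overlapped is given as a description only. The share of all tested genes without such overlap is not given. Read depth is unknown. The 52 members with at least 1 FPKM in 3 or more libraries were tested. The untested member was Usp35, a deubiquitinase at 0.10 to 1.05 FPKM. Its mean was 0.629 FPKM in the 12 females and 0.357 FPKM in the 12 males.

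The libraries differed most by sex. The first principal component held 46.8% of the variance of the tested members, and all 12 females lay above all 12 males on it. Among all tested genes that component held 73.6%. The 19 Mup genes, which encode major urinary proteins, took 2.26% to 5.93% of the table's summed FPKM in females and 14.0% to 25.7% in males. Of the targeted genes, Kdm5c could be followed, while Kdm5b and Ahr were not analysed here. In females Kdm5c was 9.63 ± 0.503 FPKM with the Kdm5 vectors, 10.7 ± 1.60 with the combined vectors and 10.3 ± 0.906 with control vectors (SD, n = 3 each), and neither difference passed (limma adjusted p = 0.66 and 0.84). In males it was 5.14 ± 0.661 FPKM with the Kdm5 vectors, 5.11 ± 0.25 with the combined vectors and 6.80 ± 0.41 with control vectors (SD, n = 3 each). Those differences did not pass either (limma adjusted p = 0.139 and 0.0785). The combined males were lower than males with the AhR vector alone, at 7.47 ± 0.483 FPKM (SD, n = 3), with a log2 fold change of -0.51 ± 0.11 that passed (limma adjusted p = 0.0124). Hepatocyte genes (3 of 5 listed markers were in the table: Apoa1, Serpina1a and Cyp2e1) summed to 14562 FPKM or more in every library.

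The highest levels among the members were those of proteasome subunits, though other genes such as Rnf10, at 63.4 FPKM, lay above several subunits. Mean levels over the 24 libraries ran from 72.5 to 116 FPKM for the 7 beta subunits of the core and from 41.3 to 84.5 FPKM for its 5 alpha subunits. The 4 ATPases of the cap lay between 33.8 and 69.0 FPKM, and its other 9 subunits between 13.0 and 89.8 FPKM. Psmb3, a structural beta subunit, was highest at 116 FPKM, followed by Psmb1 at 108 FPKM. Psmd8 was highest in the cap, at 89.8 FPKM, and Psmd9, a chaperone of cap assembly rather than a subunit of the finished particle, was lowest. Psmd9 is counted with the subunits throughout. The catalytic subunits stood close together. Psmb7, the trypsin-like subunit, averaged 95.1 ± 6.98 FPKM in females and 102 ± 7.15 in males, and Psmb6, the caspase-like subunit, 78.4 ± 8.37 and 79.5 ± 6.96 (SD, n = 12 each). Psmb5, the chymotrypsin-like subunit, averaged 71.7 ± 9.33 FPKM in females and 73.2 ± 6.23 in males (SD, n = 12 each).

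Across the 8 groups the subunits moved little. The group means of Psmd9, the proteasome gene that varied most, spanned 0.39 log2 units, lowest in control females and highest in control males. Psmd11 spanned 0.34, and Psmd4, a ubiquitin receptor of the cap, 0.34, with Psmd4 lowest in females with combined vectors and highest in males with the Kdm5 vectors. In the core Psma3 spanned 0.32, Psmb2 0.29, Psma5 and Psmb1 0.28 each, Psma6 0.27 and Psma7 0.23. Among ATPases Psmc5 spanned 0.25 and Psmc1 0.21. The widest spans of all members were those of Rnf125, at 1.80 log2 units, Rnf144a, at 1.65, and Trim24, at 1.60. Other members outside the proteasome moved as little as the subunits, among them Rnf10 (0.17), Ube2b (0.22) and Usp10 (0.34).

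The ligase and protease genes covered a wider span. RNF genes averaged from 2.72 to 63.4 FPKM, with Rnf10 and Rnf125 among the highest. TRIM genes averaged from 1.49 to 14.3 FPKM, with Trim14 highest and Trim56 lowest. Among F-box genes Fbxo21 was highest, at 34.3 FPKM, and Fbxl21 lowest, at 1.77 FPKM. The conjugating enzymes Ube2b, which acts in DNA repair with Rad18, and Ube2l6, which carries the ubiquitin-like protein ISG15, averaged 42.2 and 36.4 FPKM. Among ubiquitin-specific proteases Usp10 was highest, at 18.3 FPKM.

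Proteasome subunits varied little between mice of a group and varied together. The SD within groups had a median of 0.123 log2 units over the 25 subunits, against 0.202 over the other 27 tested members and 0.18 over all tested genes. After subtraction of the group means, the 300 pairs of subunits had a median Pearson correlation of 0.45, and 99.7% of the pairs were above 0. The median was 0.0578 over 351 pairs of other members and 0.0376 over all pairs of tested genes. These are descriptions across 24 libraries, and the members of a pair share each library's scaling. Psmc4, an ATPase, followed the mean of the other subunits with a correlation of 0.81, while Psmc5 followed it with 0.41.

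**Figure D1:**
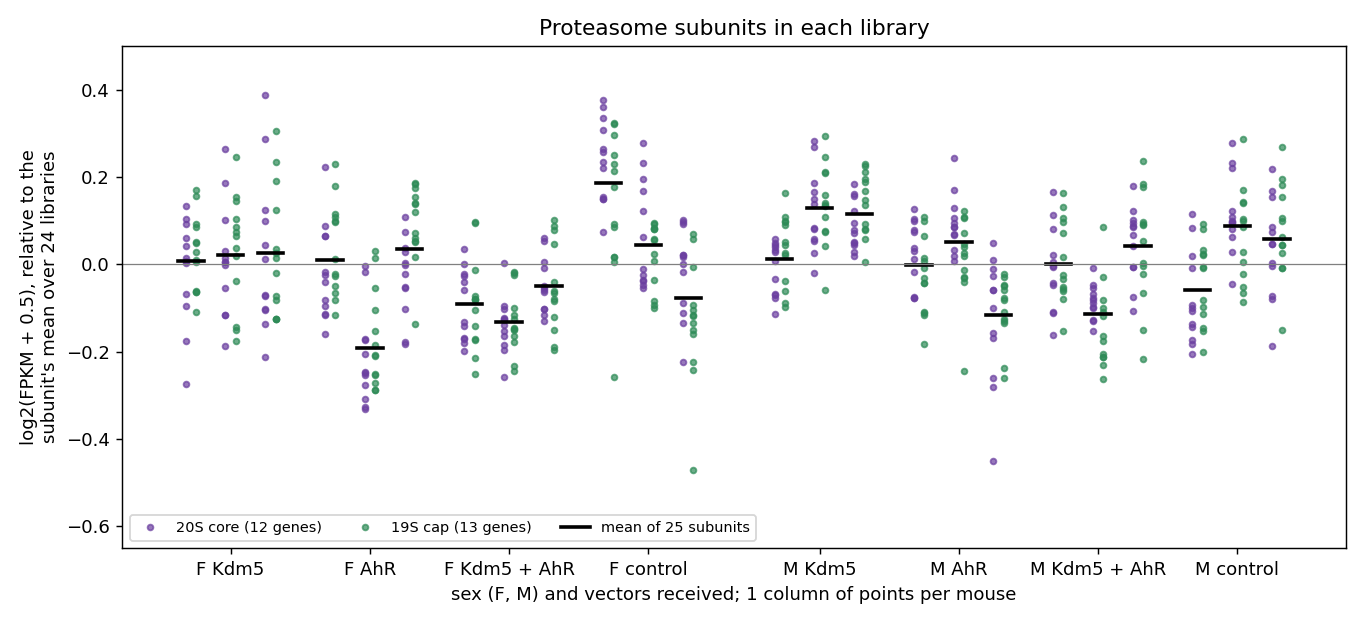
Proteasome subunits in each of the 24 libraries. The vertical axis gives log2(FPKM + 0.5) of a subunit relative to its own mean over all libraries. Each column of points is 1 mouse, violet points are the 12 core genes, green points the 13 cap genes, and the bar is the mean of all 25. Bars run from -0.19 in an AhR female to 0.19 in a control female.

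Subunits of 1 library tended to lie on the same side of their means, as the plot of subunits by library shows. The mean deviation of the 25 subunits was -0.09, -0.13 and -0.05 log2 units in the females with combined vectors and 0.19, 0.04 and -0.08 in control females. In the first of those control females 24 of 25 subunits lay above their mean. The AhR females lay at 0.01, -0.19 and 0.03, and in the second of them 23 of 25 lay below. Summed over the 25 subunits, females with combined vectors had 1433 to 1520 FPKM and control females 1503 to 1796 FPKM, so the groups overlapped slightly.

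Promoter sequence was examined because the subunits varied together. RefSeq windows of GRCm38.p6, 250 bases before to 50 after a gene's start, were at hand for 44 members, 21 of them proteasome genes. The ETS core CCGGAAG, bound by ETS factors, stood on either strand in 8 of 21 proteasome windows, 3 of 23 other members and 9.93% of all 27025 genes with a window. The core of the antioxidant response element, TGACNNNGC, through which Nfe2l1 and Nfe2l2 are known to raise proteasome genes, stood in 4 of 21, in 5 of 23 and in 14.0%. The CCAAT box, CCAAT, stood in 9 of 21, in 6 of 23 and in 41.1%. A match is only a match of letters, and the 27025 genes include noncoding ones. The 250 bases before the start are shown for 4 subunits that carry a match near the start, 5′ to 3′ on the gene's strand, with the match in capitals. Psmb5 (chr14:54617996-54618245, minus strand) and Psmb6 (chr11:70525107-70525356, plus strand) hold the antioxidant core 47 and 9 bases before the start. Psmd11 (chr11:80428365-80428614, plus strand) and Psmd12 (chr11:107479278-107479527, plus strand) hold the ETS core, in reverse, 11 and 17 bases before it.
Psmb5: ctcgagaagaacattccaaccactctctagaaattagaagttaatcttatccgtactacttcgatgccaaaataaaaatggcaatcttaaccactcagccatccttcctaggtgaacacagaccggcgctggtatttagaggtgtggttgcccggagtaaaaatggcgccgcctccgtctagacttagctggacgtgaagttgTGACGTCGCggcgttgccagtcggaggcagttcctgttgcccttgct
Psmb6: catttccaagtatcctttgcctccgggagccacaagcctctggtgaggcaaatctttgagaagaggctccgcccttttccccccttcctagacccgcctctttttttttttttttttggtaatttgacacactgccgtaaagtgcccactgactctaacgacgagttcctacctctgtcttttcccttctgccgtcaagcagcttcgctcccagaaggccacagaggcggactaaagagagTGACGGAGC
Psmd11: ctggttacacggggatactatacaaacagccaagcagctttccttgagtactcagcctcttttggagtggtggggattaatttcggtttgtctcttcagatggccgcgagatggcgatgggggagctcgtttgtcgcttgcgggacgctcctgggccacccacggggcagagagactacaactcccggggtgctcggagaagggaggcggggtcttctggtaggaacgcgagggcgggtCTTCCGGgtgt
Psmd12: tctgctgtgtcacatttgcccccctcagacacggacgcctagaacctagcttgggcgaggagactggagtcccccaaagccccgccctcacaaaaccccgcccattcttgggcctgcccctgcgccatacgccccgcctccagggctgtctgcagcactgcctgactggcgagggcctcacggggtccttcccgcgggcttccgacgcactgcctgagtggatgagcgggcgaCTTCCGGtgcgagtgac

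In females the combined vectors were accompanied by lower values of most proteasome genes, but the shift was small and 1 gene passed. Of the 25 subunits, 23 lay below control females, with a median log2 fold change of -0.16, against 0.02 over all tested genes. All 12 core genes lay below, with a median of -0.21. Psmd11, a cap subunit that clamps cap and core together, had 42.25, 40.50 and 49.27 FPKM with combined vectors, against 58.62, 50.85 and 49.61 FPKM in control females. The highest mouse with combined vectors lay just under the lowest control. Psmd11 fell, with a log2 fold change of -0.27 ± 0.08 (limma adjusted p = 0.0419). Psmd7 and Psmb1 had -0.29 ± 0.10 and -0.28 ± 0.09 and did not pass (limma adjusted p = 0.0519 and 0.0524). Without control female 1, the control with the highest subunit values, 18 of 25 lay below, the median was -0.08, and Psmd11 did not pass. It did not pass without combined female 1 or 2 either.

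With the AhR vector 19 of 25 subunits lay below control females, with a median of -0.09, and 0 passed. Without control female 1 the count was 14 and the median -0.02, and without AhR female 2 they were 14 and -0.05. With the Kdm5 vectors 15 of 25 lay below, with a median of -0.06, but without control female 1 the count was 11 and the median 0.02. These 3 female comparisons share the control mice. In males 20 of 25 subunits lay above control males with the Kdm5 vectors (median 0.06), 17 of 25 below with the AhR vector (median -0.04) and 18 of 25 below with combined vectors (median -0.04), and 0 passed in any of the 3. The medians of all tested genes were 0.01, 0.07 and 0.01. The male directions rested on single mice or on scaling. Without control male 2, 12 of 25 lay below with the AhR vector and 12 of 25 with combined vectors (medians 0.01 and 0.00). Without AhR male 3 the AhR count was 12 as well (median 0.01), and after rescaling it was 24 (median -0.12). Without control male 1 or Kdm5 male 2 the median with the Kdm5 vectors was 0.01 or 0.02. Psmd11 had 42.80, 41.28 and 40.97 FPKM in males with combined vectors and 50.81, 47.84 and 51.35 FPKM in control males. The male groups did not overlap, and the log2 fold change was -0.26 ± 0.08 (limma adjusted p = 0.102). Taken as a difference of the sexes, the combined effect lay lower in females for 21 of 25 subunits, and 0 passed. The median was -0.08, against -0.001 over all tested genes. Because the subunits varied together within libraries, such counts are not 25 separate observations.

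**Figure D2:**
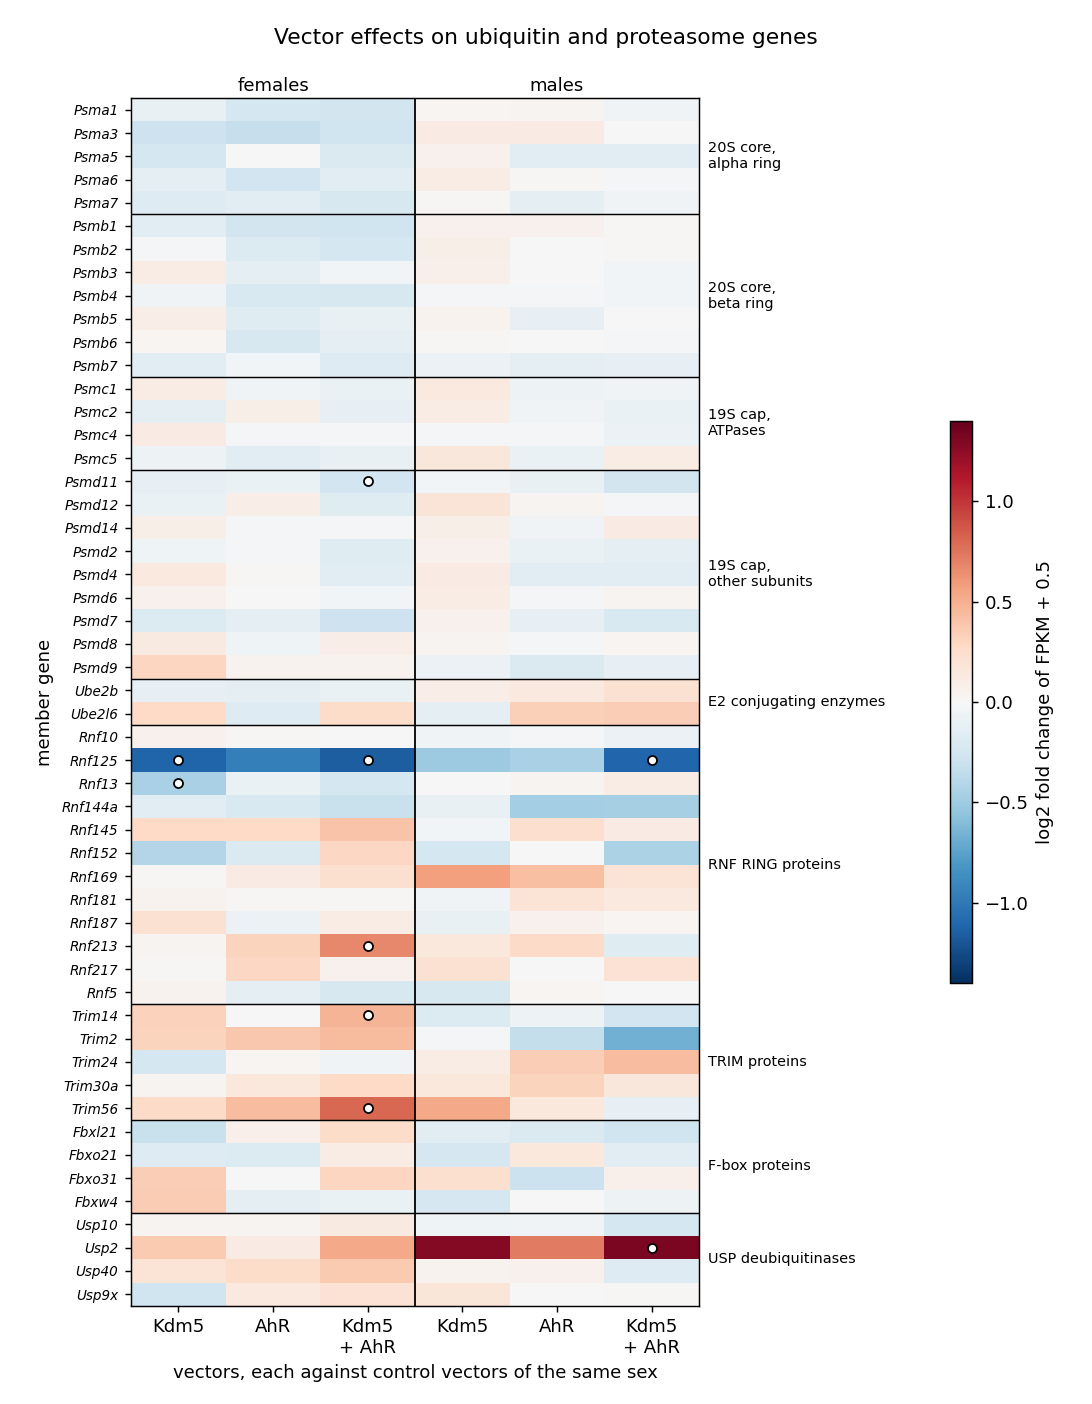
Log2 fold changes of the 52 tested members with the Kdm5, AhR and combined vectors, each against control vectors of the same sex. Rows are genes grouped by class, colour is the log2 fold change of FPKM + 0.5, and open circles mark the 9 values that passed. Rnf125 is the deepest blue in both sexes and Usp2 the deepest red in males.

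Across all classes the vectors changed few members. With the Kdm5 vectors 2 of 52 members passed in females, both lower, where 6.87% of all tested genes passed. In males limma called 0 of 52, where 1.22% of genes passed. An unadjusted limma p below 0.05 was found for 4 of 52 members and 9.92% of all tested genes. With the AhR vector 0 of 52 passed in females and 0 of 52 in males, where 0.217% and 1.09% of genes passed. The unadjusted limma p was below 0.05 for 9 and 4 of 52 members, and for 12.9% and 13.9% of all tested genes. With combined vectors 5 of 52 passed in females, 3 higher and 2 lower, where 11.6% of genes passed. In males 2 of 52 passed, 1 higher and 1 lower, where 2.35% of genes passed. The members' shares of 3.85% in Kdm5 females, 9.62% in combined females and 3.85% in combined males lie below those of all genes in females and slightly above in males.

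Rnf125 was the member that fell most with vectors. It encodes a RING ligase known to tag the RNA sensors RIG-I and MDA5 for degradation. With combined vectors females had 54.74, 33.45 and 63.35 FPKM, with the Kdm5 vectors 48.52, 63.53 and 40.72 FPKM and with the AhR vector 53.00, 58.46 and 56.40 FPKM, against 131.09, 128.02 and 77.53 FPKM in control females. Every control female lay above all 9 females with other vectors. The log2 fold changes were -1.15 ± 0.24 for combined vectors (2.23-fold lower, limma adjusted p = 0.00743) and -1.12 ± 0.24 for the Kdm5 vectors (2.17-fold lower, adjusted p = 0.0106). For the AhR vector the value was -0.96 ± 0.24, which did not pass (limma adjusted p = 0.094). Without control female 1 neither of the first pair passed, and without control female 3 the AhR value passed.

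In males Rnf125 had 32.83, 33.08 and 27.26 FPKM with combined vectors, 53.03, 46.58 and 42.37 FPKM with the Kdm5 vectors and 53.78, 47.88 and 45.55 FPKM with the AhR vector, against 97.56, 59.60 and 52.02 FPKM in control males. Males with combined vectors lay below all other males, and the single-vector groups overlapped the controls. The log2 fold change was -1.11 ± 0.24 for combined vectors (2.15-fold lower, limma adjusted p = 0.0184). With the Kdm5 vectors alone it was -0.51 ± 0.24, with the AhR vector alone -0.45 ± 0.24, and neither passed (limma adjusted p = 0.497 and 0.409). The combined value did not pass without control male 1 or without combined male 3. The difference between the sexes in the combined effect was -0.05 ± 0.34 (95% interval -0.75 to 0.66, limma adjusted p = 0.932).

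Rnf13, an endosomal and lysosomal membrane ligase, fell with the Kdm5 vectors in females. The mice had 42.33, 44.05 and 50.33 FPKM with the Kdm5 vectors, against 59.92, 65.81 and 61.87 FPKM with control vectors, and the groups did not overlap. The log2 fold change was -0.46 ± 0.10 (1.37-fold lower, limma adjusted p = 0.0134). Without Kdm5 female 1, or without control female 1, it did not pass. In males the value was 0.01 ± 0.10, and the difference between the sexes, -0.47 ± 0.15, did not pass (limma adjusted p = 0.0987).

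Usp2, a deubiquitinase whose RNA is known to follow the circadian clock, rose in males. Males with combined vectors had 11.51, 7.89 and 6.17 FPKM and males with the Kdm5 vectors 6.70, 8.78 and 8.96 FPKM, against 2.70, 3.22 and 3.17 FPKM in control males. All 6 lay above all 3 control males. The log2 fold change was 1.31 ± 0.33 for combined vectors (2.49-fold higher, limma adjusted p = 0.0383) and 1.29 ± 0.33 for the Kdm5 vectors, which did not pass (adjusted p = 0.0653). With the AhR vector it was 0.73 ± 0.33 (limma adjusted p = 0.315). The combined value did not pass in any of the 6 fits that leave out 1 of its mice. In females the log2 fold change with combined vectors was 0.54 ± 0.33 (limma adjusted p = 0.275), and the difference between the sexes, -0.78 ± 0.46, did not pass (limma adjusted p = 0.267).

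**Figure D3:**
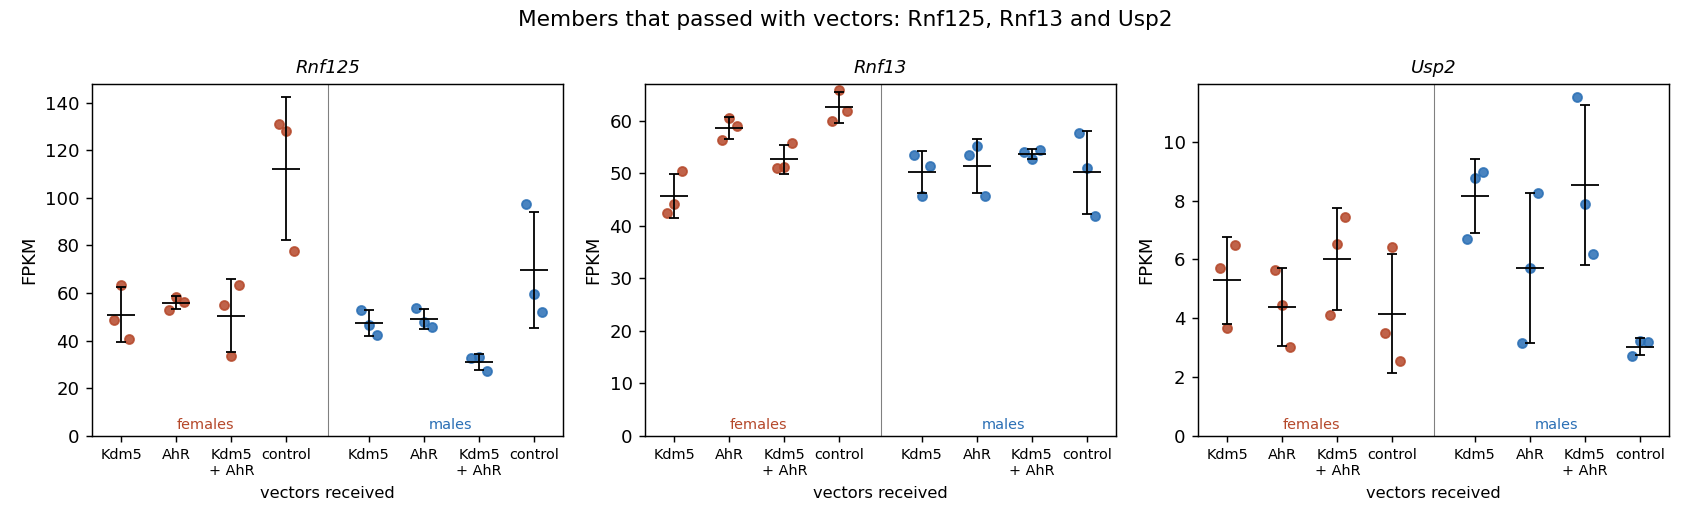
FPKM of Rnf125, Rnf13 and Usp2 in each mouse by sex and vectors. Points are mice (red females, blue males), bars the mean ± SD of 3 mice. Control females stand highest for Rnf125, at 77.53 to 131.09 FPKM, and control males lowest for Usp2, at 2.70 to 3.22 FPKM.

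The members that rose with combined vectors in females were Rnf213, Trim56 and Trim14. Rnf213 is a giant ATPase and ligase that acts against microbes and is induced by interferon. It had 5.72, 6.15 and 6.71 FPKM in females with combined vectors and 3.93, 3.24 and 3.96 FPKM in control females. The groups did not overlap, and the log2 fold change was 0.67 ± 0.12 (1.59-fold higher, limma adjusted p = 0.00458). It passed in all 6 fits that leave out 1 of these mice, at 0.59 to 0.72. With the Kdm5 vectors it was 0.04 ± 0.12 and with the AhR vector 0.31 ± 0.12, and neither passed (limma adjusted p = 0.883 and 0.281).

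Trim56, an interferon-induced ligase of innate sensing, had 2.63, 2.52 and 2.77 FPKM in females with combined vectors, against 1.04, 1.43 and 1.47 FPKM in control females. The groups did not overlap, and the log2 fold change was 0.80 ± 0.20 (1.74-fold higher, limma adjusted p = 0.0181). Trim14, an adaptor of antiviral signalling at mitochondria, had 20.10, 15.80 and 17.02 FPKM, against 13.58, 12.47 and 11.46 FPKM in control females. Its groups did not overlap either, and the log2 fold change was 0.48 ± 0.13 (1.39-fold higher, limma adjusted p = 0.0292). Both lost the call without control female 1 or combined female 3. Trim14 lost it also without combined female 1 or control female 3.

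Of 22 genes listed as linked to interferon signalling among RNF, TRIM, USP and UBE2 genes, 6 were in the table. With combined vectors in females 3 of them rose (Rnf213, Trim56 and Trim14) and 1 fell (Rnf125), where 11.6% of all tested genes passed. The median log2 fold change of the 6 was 0.38, against 0.02 over all tested genes. The list was chosen with earlier results of these data known, so this median is a description and no test. Ube2l6 and Trim30a did not pass. Markers of other liver cells moved in the same comparison. The 4 listed sinusoidal endothelial genes in the table (Stab2, Lyve1, Kdr and Gpr182) summed to 67.7 to 76.7 FPKM in females with combined vectors and 49.4 to 58.4 FPKM in control females, and 1 of 4 passed. The 4 stellate cell genes (Lrat, Reln, Dcn and Col3a1) summed to 152 to 174 FPKM with combined vectors and 117 to 131 FPKM with control vectors, and 1 of 4 passed. Single vectors went with higher endothelial sums as well, at 68.2 to 71.3 FPKM in Kdm5 females and 60.7 to 66.9 FPKM in AhR females. The stellate sums were 137 to 156 FPKM in Kdm5 females and 111 to 138 FPKM in AhR females. The 7 Kupffer cell and macrophage genes summed to 379 to 497 FPKM with combined vectors and 414 to 458 FPKM with control vectors, and 0 of 7 passed in limma. In whole-liver RNA, a change in the number of cells of a type and a change in RNA per cell cannot be told apart. The part of these cells in the result was not tested.

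In males the combined vectors went with lower values of Rnf213, Trim14 and Trim2 that did not pass. Rnf213 had 2.59, 2.75 and 2.47 FPKM with combined vectors, against 3.04, 2.61 and 3.34 FPKM in control males. Trim14 had 12.68, 13.34 and 11.64 FPKM with combined vectors, against 16.65, 15.84 and 13.41 FPKM in control males. Trim2, a ligase known for neurofilament turnover, had 3.45, 4.63 and 3.95 FPKM with combined vectors, against 7.58, 6.16 and 6.23 FPKM in control males. For Trim14 and Trim2 the male groups did not overlap, and the log2 fold changes were -0.17 ± 0.12 for Rnf213, -0.27 ± 0.13 for Trim14 and -0.67 ± 0.18 for Trim2 (limma adjusted p = 0.602, 0.339 and 0.0579).

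Tested as a difference between the sexes, the combined effect on 3 of 52 members passed, all higher in females, where 5.92% of all tested genes passed. Trim2 differed by 1.12 ± 0.26 (limma adjusted p = 0.0166), with 8.98, 7.02 and 9.17 FPKM in females with combined vectors and 5.71, 7.32 and 5.10 FPKM in control females. Rnf213 differed by 0.84 ± 0.18 (limma adjusted p = 0.0121) and Trim14 by 0.75 ± 0.18 (limma adjusted p = 0.0208). Trim2 and Rnf213 passed in all 12 fits that leave out 1 mouse. Trim14 passed in 9 of 12 and failed without combined female 1, control male 1 or combined male 3. Trim56 and Usp40 differed by 0.91 ± 0.28 and 0.55 ± 0.17 and did not pass (limma adjusted p = 0.0519 and 0.0553), but both passed when libraries were rescaled by the median of ratios. The Kdm5 effect differed between the sexes for 0 of 52 members in limma, and the AhR effect for 0 of 52, where 1.74% and 0.565% of genes passed. The unadjusted limma p was below 0.05 for 9 and 4 of 52 members, and for 17.1% and 13.8% of all tested genes.

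**Figure D4:**
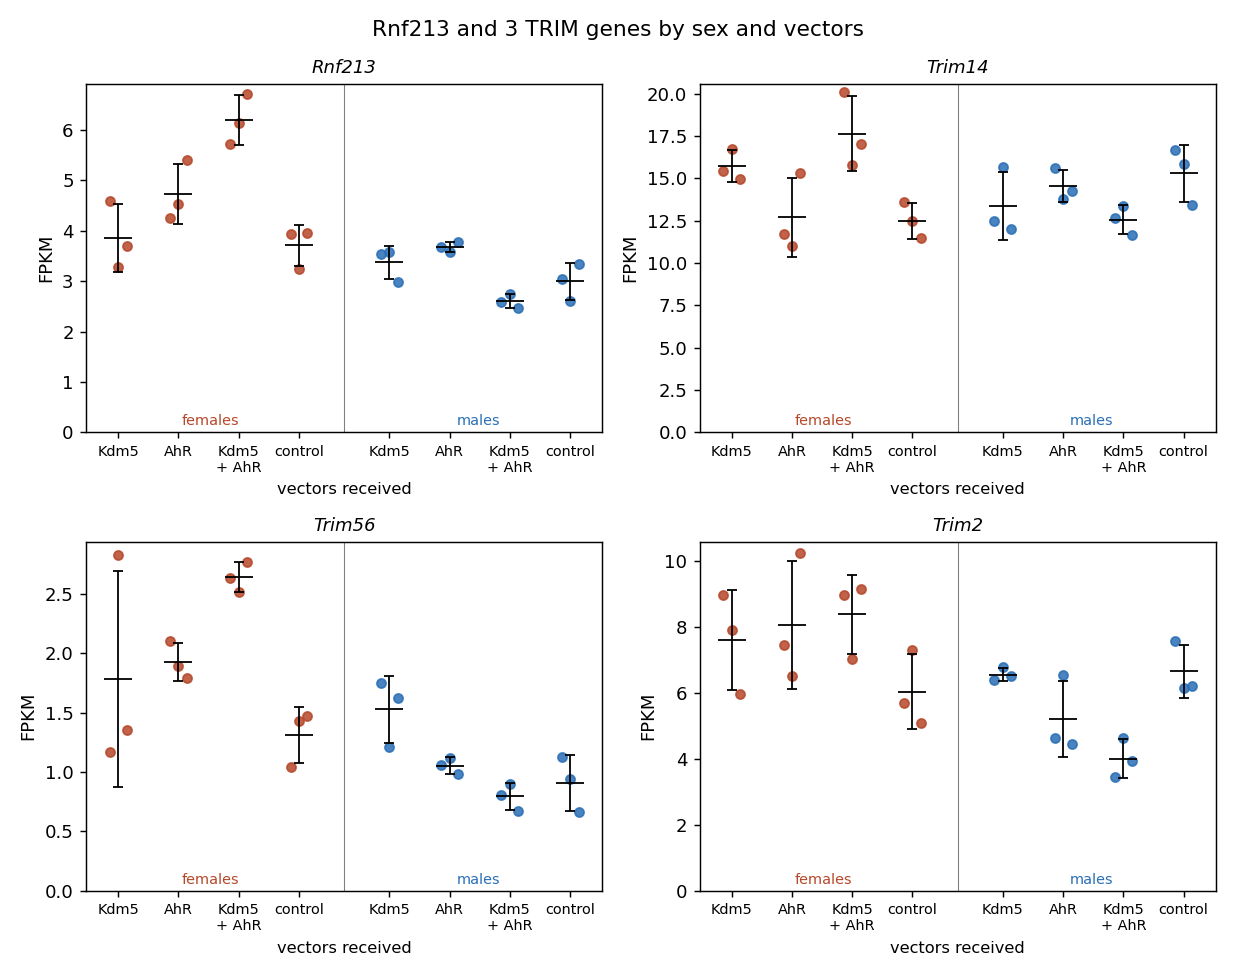
FPKM of Rnf213, Trim14, Trim56 and Trim2 in each mouse by sex and vectors. Points are mice (red females, blue males), bars the mean ± SD of 3 mice. Females with combined vectors stand above control females for Rnf213, Trim14 and Trim56, and males with combined vectors stand below control males for Trim14 and Trim2.

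Adding the Kdm5 vectors to the AhR vector changed 0 of 52 members in females in limma and 0 of 52 in males, where 0.696% and 3.26% of genes passed. The unadjusted limma p was below 0.05 for 6 and 3 of 52 members, and for 15.4% and 16.3% of all tested genes. In females Trim14 came closest, with 20.10, 15.80 and 17.02 FPKM with combined vectors and 11.74, 11.00 and 15.32 FPKM with the AhR vector, a log2 fold change of 0.47 ± 0.13 (limma adjusted p = 0.0985). It passed without AhR female 3. In males Rnf213 had the log2 fold change of -0.43 ± 0.12 (limma adjusted p = 0.0675). Whether the Kdm5 effect depended on the AhR vector was tested as an interaction. It passed for 0 of 52 members in females and 0 of 52 in males, where 0.609% and 1.61% of genes passed. The unadjusted limma p was below 0.05 for 6 and 3 of 52 members, and for 10.2% and 12.8% of all tested genes.

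Sex separated the ligase genes more than any vector. Over the 4 vector settings 19 of 52 members differed between females and males, 14 higher and 5 lower in females, where 62.3% of all tested genes passed. All 52 members had a median log2 fold change of 0.00, and all tested genes 0.08. By class, 4 of 5 TRIM genes and 6 of 12 RNF genes were higher in females and none of either was lower, while 2 of 25 proteasome genes were lower and none was higher. Among F-box genes 1 was higher and 2 were lower, and among the 4 tested USP genes 2 were higher and 1 was lower. These counts depended on the scaling. Dividing each library by its median ratio lowered the median of all genes by 0.12 log2 units and gave 11 higher and 28 lower members. After rescaling 75.3% of all tested genes passed, and 75.0% of the members. Then 4 TRIM and 5 RNF genes were still higher, and 3 RNF genes (Rnf181, Rnf187 and Rnf217) were lower. Of the 25 proteasome genes 20 were then lower, with a median of -0.15 against -0.05 over all genes.

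Trim24, a ligase and corepressor of retinoic acid receptors that restrains liver tumours in mice, had the largest difference of the members under both scalings. It ranged from 8.36 to 13.89 FPKM in females (median 10.1) and from 2.80 to 5.51 FPKM in males (median 4.06). The log2 fold change was 1.28 ± 0.09 (2.44-fold higher in females, limma adjusted p = 4.146e-10). Rnf144a, a ligase known to tag the DNA repair kinase DNA-PKcs, ranged from 2.38 to 6.21 FPKM in females (median 4.0) and from 0.93 to 2.05 FPKM in males (median 1.3). Its log2 fold change was 1.26 ± 0.10 (2.40-fold higher in females, limma adjusted p = 1.469e-09). Rnf145, an endoplasmic reticulum ligase of sterol regulation, ranged from 5.53 to 10.48 FPKM in females (median 7.29) and from 3.22 to 5.39 FPKM in males (median 4.50). Its log2 fold change was 0.69 ± 0.08 (1.61-fold higher in females, limma adjusted p = 4.754e-07). For these 3 of 52 members the 12 females and 12 males did not overlap, which held for 13.4% of all tested genes.

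Trim30a and Fbxl21 were also higher in females. Trim30a, an interferon-induced brake on Toll-like receptor signalling, averaged 2.68 ± 0.485 FPKM in females and 1.28 ± 0.378 FPKM in males (SD, n = 12 each), and the log2 fold change was 0.85 ± 0.11 (limma adjusted p = 8.599e-07). It has close paralogs, so reads may have been split among them. Fbxl21, an F-box protein that acts on the clock's cryptochromes, averaged 2.39 ± 0.594 FPKM in females and 1.16 ± 0.344 FPKM in males (SD, n = 12 each), and the log2 fold change was 0.81 ± 0.12 (limma adjusted p = 4.749e-06). Trim56 (0.60), Rnf213 (0.46), Usp40 (0.44), Rnf125 (0.41), Trim2 (0.40) and Rnf152 (0.38), a lysosomal ligase, were higher by these log2 fold changes on the deposited scale. They passed after rescaling too, at 0.28 to 0.51. The mean over settings hides differences among them. Trim2 averaged 6.04 FPKM in control females and 6.66 in control males, but 8.39 and 4.01 FPKM with combined vectors. Rnf125 averaged 50.9 FPKM in females and 47.3 in males with the Kdm5 vectors. Ube2l6 (0.25), Rnf169 (0.23) and Usp9x (0.16) lost the call when rescaled.

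Of the 6 interferon-linked members, 5 were higher in females, where 62.3% of all tested genes passed. The median log2 fold change of the 6 was 0.43, against 0.08 over all tested genes. As above, the list was not chosen independently of these data, and the median only describes it. After rescaling 4 of the 6 passed, since Ube2l6 did not (limma adjusted p = 0.185). The core of the interferon-stimulated response element, searched as GAAANNGAA, stood on either strand in 2 of 23 promoters of other members (Trim30a and Trim2), in 5 of 21 proteasome promoters and in 9.76% of all genes with a window. The E-box CACGTG, bound by clock factors, stood in 2 of 23, in 1 of 21 and in 8.09%, and the D-box TTATGTAA in none of the 44 and in 1.11%. The 250 bases before the start of Trim30a (chr7:104465194-104465443, minus strand) are shown as an example. Its match, in reverse and in capitals, lies 35 bases before the start. Of the 6 interferon-linked members only Trim30a was among the matches, though not every member had a window. A link of the match to expression was not tested.
Trim30a: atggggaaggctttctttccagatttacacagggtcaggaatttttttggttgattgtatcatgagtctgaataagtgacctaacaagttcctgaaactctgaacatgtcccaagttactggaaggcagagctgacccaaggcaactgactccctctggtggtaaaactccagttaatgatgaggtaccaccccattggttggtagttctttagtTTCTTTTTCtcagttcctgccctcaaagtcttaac

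Markers of other liver cells differed by sex as well. The 7 Kupffer cell and macrophage genes in the table (Clec4f, Vsig4, Cd5l, C1qa, C1qb, C1qc and Csf1r) summed to 363 to 497 FPKM in females and 189 to 336 FPKM in males, and all 7 passed. All 4 sinusoidal and all 4 stellate genes passed too, and so did both erythroid genes in the table (Hba-a2 and Hbb-bs), 2 of 3 hepatocyte genes and the cholangiocyte gene Sox9. In this comparison 62.3% of all tested genes passed, so most genes of any list would be called. The erythroid genes summed to 683 to 1427 FPKM in females and 481 to 954 FPKM in males, and the hepatocyte genes to 14562 to 21367 FPKM in females and 20048 to 22772 FPKM in males. Sox9 ranged from 0.66 to 1.59 FPKM in females and from 0.70 to 2.44 FPKM in males. Their part in the sex differences of the members was not tested.

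Usp9x, a deubiquitinase on chromosome X (13070982 to 13173328), was the single member on a sex chromosome. It averaged 10.1 ± 1.49 FPKM in females and 8.95 ± 0.664 FPKM in males (SD, n = 12 each). As a mean over the vector settings, the log2 fold change of 0.16 ± 0.05 passed on the deposited scale (limma adjusted p = 0.00606). Usp9x lost the call after rescaling. The mean also hides a reversal in the deposited values, though the sex difference of the Kdm5 effect passed for 0 of 52 members. On the deposited scale, every female lay above every male of the same setting with the control, AhR and combined vectors. With the Kdm5 vectors every male lay above every female, at 9.33 to 10.08 FPKM in males and 7.55 to 8.50 FPKM in females. A related gene on chromosome Y was not analysed here, and reads shared with it cannot be told apart. Females with the Kdm5 vectors had the lowest Usp9x, at 8.50, 8.21 and 7.55 FPKM, against 9.56, 10.05 and 10.10 FPKM in control females. The groups did not overlap, but the log2 fold change of -0.28 ± 0.09 did not pass (limma adjusted p = 0.0741).

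The members that were lower in females were Fbxo31, Fbxo21, Usp10, Psmd9 and Psmb7. Fbxo31, which targets cyclin D1 after DNA damage, averaged 15.7 ± 2.83 FPKM in females and 20.6 ± 3.63 FPKM in males (SD, n = 12 each), a log2 fold change of -0.38 ± 0.08 (limma adjusted p = 0.000215). Fbxo21 differed by -0.27 ± 0.08 and Usp10, which stabilises p53, by -0.21 ± 0.06 (limma adjusted p = 0.00445 and 0.00653). Psmd9 averaged 12.1 ± 1.37 FPKM in females and 13.9 ± 1.32 FPKM in males (SD, n = 12 each), a log2 fold change of -0.19 ± 0.05 (limma adjusted p = 0.00375). All but Psmb7 passed in each of the 24 fits that leave out 1 mouse. Psmb7 differed by -0.10 ± 0.04 (limma adjusted p = 0.0338) and passed in 12 of the 24.

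**Figure D5:**
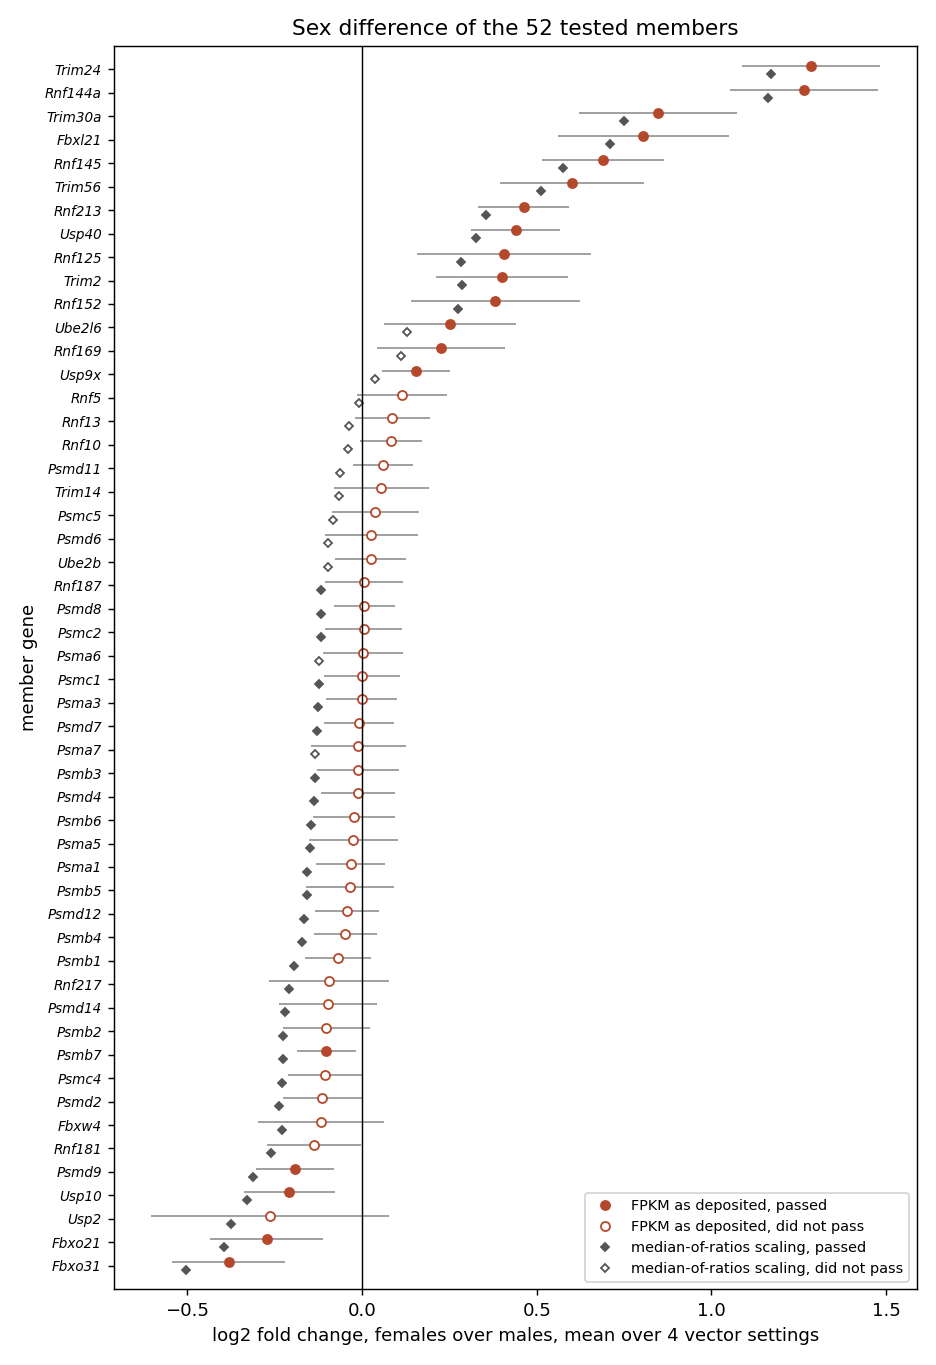
Sex difference of the 52 tested members, females over males, as the mean over 4 vector settings. Circles with 95% intervals are FPKM as deposited, diamonds are values after median-of-ratios scaling, and filled symbols passed. Trim24 and Rnf144a lie above 1 on the log2 scale in both, and most proteasome genes pass as lower in females after rescaling.

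In mice with control vectors alone, 11 of 52 members differed by sex, 8 higher and 3 lower in females, where 42.5% of all tested genes passed. Rescaling lowered the median of all genes by 0.16 and gave 3 higher and 7 lower members, where 42.7% of all tested genes then passed. Trim24 had 10.48, 9.28 and 13.89 FPKM in control females and 3.53, 3.94 and 2.80 FPKM in control males, a log2 fold change of 1.57 ± 0.19 (2.97-fold higher in females, limma adjusted p = 2.536e-06). Rnf144a and Trim30a were higher by 1.17 ± 0.20 and 0.89 ± 0.22 (limma adjusted p = 0.000135 and 0.00269), and these 3 genes passed in all 6 fits that leave out 1 mouse and under both scalings. Rnf125 (0.70), Fbxl21 (0.65), Rnf145 (0.53), Rnf13 (0.33) and Psma3 (0.28) passed as higher by these log2 fold changes on the deposited scale and not after rescaling. Fbxo31 (-0.54), Psmd9 (-0.39) and Usp10 (-0.34) passed as lower in females under both scalings. Among them Usp10 passed in 1 of the 6 fits that leave out a mouse and Fbxo31 in 5, failing without control male 2. Rnf125 and Fbxl21 passed in 2 of 6, Psma3 in 3, Rnf145 in 4 and Rnf13 in 5, so that both control groups decide these calls.

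Other genes of the ubiquitin pathway were counted from a list of 228, of which 43 were in the table and tested. With combined vectors 4 of 43 rose in females and 0 fell, where 11.6% of all tested genes passed, so the share is not above that of other genes. They were Dtx3l (0.67 ± 0.14), an interferon-linked ligase, Birc6 (0.56 ± 0.11), an inhibitor of apoptosis with conjugating activity, Nbr1 (0.40 ± 0.08), an autophagy receptor for tagged proteins, and Huwe1 (0.39 ± 0.10), a HECT ligase. Their limma adjusted p lay between 0.00631 and 0.0203. Dtx3l averaged 13.2 ± 0.502 FPKM in females with combined vectors and 8.19 ± 0.994 FPKM in control females (SD, n = 3 each). The combined effect differed between the sexes for 5 of 43, all higher in females, where 5.92% of all tested genes passed. They were led by Dtx3l (0.91 ± 0.19) and Birc6 (0.88 ± 0.16).

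In males Herpud1, a component of degradation at the endoplasmic reticulum, rose with both single vectors. It averaged 245 ± 14.3 FPKM with the Kdm5 vectors and 302 ± 32.2 FPKM with the AhR vector, against 133 ± 33.7 FPKM in control males (SD, n = 3 each). The log2 fold changes were 0.91 ± 0.21 and 1.20 ± 0.21 (limma adjusted p = 0.0367 and 0.00628). With combined vectors males averaged 226 ± 32.8 FPKM (SD, n = 3), which did not pass against control males. The interaction of the vectors in males passed, at -1.33 ± 0.30 (limma adjusted p = 0.0304). So did the difference between the sexes, females minus males, in the Kdm5 effect (-1.39 ± 0.30) and in the AhR effect (-1.34 ± 0.30), with limma adjusted p = 0.0291 and 0.0428. The ligase gene Dtx4 fell by 0.94 on the log2 scale with combined vectors in males (limma adjusted p = 0.00195). By sex 13 of 43 were higher and 6 lower in females over the 4 settings, a smaller share than the 62.3% of all tested genes that passed. Stambpl1 (1.28 ± 0.12), a deubiquitinase, Klhl13 (0.83 ± 0.08), a cullin adaptor, and Nfe2l2 (0.64 ± 0.05), the antioxidant factor that the ubiquitin system holds low, were highest. Mindy3 (-0.29 ± 0.06), a deubiquitinase, Klhl2 (-0.23 ± 0.08) and the ligase Pja1 (-0.23 ± 0.05) were lowest.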

How the data were processed

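RNA of whole livers was extracted with a Qiagen kit and sequenced by standard BGI protocols, per the labels' protocols. The deposited table gives FPKM per gene and library, computed by the authors and rounded to 2 decimals. HISAT, Bowtie2 and build GRCm38.p6 are named, per the submitters' processing notes. Versions, strand and the choice of the 2372 genes: not given in the sources used here. FPKM removes depth, so no counting interval is given. No 2 libraries held identical values.

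Groups came from the labels. Replicate numbers follow the order of samples and pair nothing. Separate mice are implied, but no cage or batch is named, so p-values measure the spread between these samples. Values were tested as log2(FPKM + 0.5) with limma 3.58.1 in R 4.3.3, with 1 mean per group over 24 libraries, 16 residual degrees of freedom, an intensity trend and robust moderation. Genes with at least 1 FPKM in 3 libraries were tested, 2299 in all, and Benjamini-Hochberg values below 0.05 passed, in 15 comparisons. The procedure was tested on simulated data. Alternatives were median-of-ratios scaling, a pseudocount of 0.1, no filter, fits on the compared groups, and leaving out each mouse.

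Members, classes and gene lists were chosen with earlier results of these data known, and adjusted p-values hold within this table. The genes named were members that passed, the 2 most abundant and the 2 most variable of each class, and members on sex chromosomes. Up to 3 highest and 3 lowest other pathway genes that passed were named per comparison. A gene that this rule takes is not reported here. Psmb5, Psmb6, Psmd12, Psmd7 and Rnf169 were named after their values were seen. Promoters and coordinates are from RefSeq for GRCm38.p6.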

Additional observations from a re-analysis of the deposited data

Results flagged for a closer look

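The effect of the combined vectors differed between females and males, by a test of the difference itself, for 3 members. The difference, females minus males on the log2 scale, was 1.12 for Trim2, 0.84 for Rnf213 and 0.75 for Trim14. In each case the value was above 0 in females and below 0 in males. Trim2 did not pass within either sex, Rnf213 and Trim14 passed in females, and the share of all tested genes that differed was 5.92%.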

How the results depend on the processing

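No named call that had passed turned its direction under the alternatives run. Genes that had not passed did so by sex: with control vectors 17 of 25 proteasome genes lay above 0 as deposited and 2 of 25 after median-of-ratios scaling. No filter and a pseudocount of 0.1 changed no call of a named member. Fits on the compared groups alone, with 4 residual degrees of freedom in a comparison of 2 groups, gave 0 members for the Kdm5 and 0 for the combined vectors in females, against 2 and 5. They gave 1 for the Kdm5 and 1 for the combined vectors in males (Usp2 in both), 1 for the Kdm5 vectors added to the AhR vector in males (Rnf125), and 5 for sex with control vectors. Median-of-ratios scaling gave 39 members for sex over 4 settings, against 19, and 5 for the sex difference of the combined effect, against 3. It gave 1 higher and 2 lower members for combined vectors in males, with Trim2 added. The cause of these changes was not tested.

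Leaving out each mouse in turn gave 0 to 2 members for the Kdm5 vectors in females, 0 to 1 for the AhR vector in females, 1 to 7 for the combined vectors in females, and 0 to 1 in males. It gave 0 to 1 for the Kdm5 vectors added to the AhR vector in females, 7 to 11 for sex with control vectors and 17 to 21 for sex over 4 settings. For the sex difference it gave 0 to 1 for the Kdm5 effect and 2 to 5 for the combined effect. It gave 0 to 0 for the Kdm5 vectors in males, the AhR vector in males, the Kdm5 vectors added to the AhR vector in males, the sex difference of the AhR effect and both interactions. Control female 1 decided most female calls: without it Rnf213 alone passed with combined vectors and no member with the Kdm5 vectors. No paired analysis was possible because the replicate numbers follow the order of samples. Read depth is unknown, and low members such as Usp35, Trim56 and Trim30a lie close to the pseudocount of 0.5, so their fold changes are understated.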

Other observations

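Usp35, the untested member, had 1.05, 0.71 and 0.97 FPKM in females with combined vectors, 0.22, 0.70 and 0.94 FPKM in females with the Kdm5 vectors and 0.46, 0.71 and 0.58 FPKM in females with the AhR vector, against 0.19, 0.48 and 0.54 FPKM in control females. It had 0.29, 0.50 and 0.10 FPKM in males with combined vectors, against 0.34, 0.39 and 0.35 FPKM in control males. The females with combined vectors lay above the control females, and the male groups overlapped.

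Ube2l6, the conjugating enzyme for ISG15, varied widely among females with the Kdm5 vectors, which had 43.70, 34.36 and 58.37 FPKM, against 42.89, 27.73 and 40.78 FPKM in control females. Rnf169, a ligase of the DNA break response, had log2 fold changes in males of 0.57 ± 0.18 with the Kdm5 vectors and 0.42 ± 0.18 with the AhR vector, and neither passed (limma adjusted p = 0.172 and 0.277).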
